A study of Mus musculus with 2 samples.

Results

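Intergenic long non-coding RNAs (lincRNAs) are transcribed from stretches of the genome between coding genes. The set described here held 222 of the 614 lncRNAs in the deposited table of known lncRNAs from mouse liver. A member had the gene type lincRNA in GENCODE M21, overlapped the span of no protein-coding gene on either strand, and had its 5' end over 2 kb from the 5' end of every protein-coding gene. Of 277 intergenic lincRNAs at any distance, 47 lay nearer than that, and 8 were left out by name as abundant, multi-copy or well-studied lncRNAs.

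The study compared livers of wild-type C57BL/6 mice fed a high fat diet (HFD, 60% fat) for 23 weeks with livers of wild-type C57BL/6 mice fed a normal diet (ND), all taken at postnatal week 27. Each diet had 1 library of total RNA, so no value has a replicate error and the diets cannot be tested against each other. Intervals below are exact 95% Clopper-Pearson intervals on read pairs and cover counting error only, since reads without molecular identifiers are not independent molecules. The labels name hepatocytes while the extraction protocol describes whole frozen liver. The 4 hepatocyte markers looked for (Alb, Apoa1, Ttr and Cyp2e1) are coding genes, which this lncRNA table does not list, so the cell type was not checked. Whether a library pools several animals is not stated. In such bulk samples, fewer cells of a type and less RNA per cell cannot be told apart.

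LincRNA genes carry their own promoters and are often spliced and polyadenylated like coding genes, but are generally expressed at lower levels and in fewer tissues. Some act on nearby genes in cis, some act elsewhere in the cell, some serve as precursors of microRNAs, and for most no function is known. By GENCODE M21 members overlap no coding gene on either strand, while RefSeq lists the symbols of 3 of them (Lsmem2, Tmem250-ps and 1810058I24Rik) as protein-coding.

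Intergenic lincRNAs held a small part of the known lncRNA reads in both livers. They held 14442 reads in the HFD library and 17150 in the ND library, which is 7.46% (7.30 to 7.63) and 7.08% (6.94 to 7.23) of the table's total. Levels were very unequal: the member with the most reads held 17.8% of all member reads, the 5 with the most held 44.9% and the 20 with the most 71.6%. Reads over both libraries ranged from 4 to 5634 with a median of 20, against a median of 133 for the rest of the table. Only 97 members reached 20 reads in either library, and 125 did not.

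Per kb of exon, intergenic lincRNAs far from coding starts and those within 2 kb of one had nearly the same median level. Members had a median of 15.1 reads of both libraries per kb of exon (quartiles 6.06 and 59.2) and the 47 nearer ones 15.9 (7.23 and 37.4). The 58 lincRNAs inside a coding gene span without coding exon overlap had a median of 37.8, the 81 of antisense type 105 and the 150 over coding exons 151. These are descriptions of these libraries across genes, which are not replicates. The use of strand in counting is not stated. Reads of the antisense and coding-exon classes may thus include reads of coding genes, and their part in the higher medians was not tested.

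**Figure D1:**
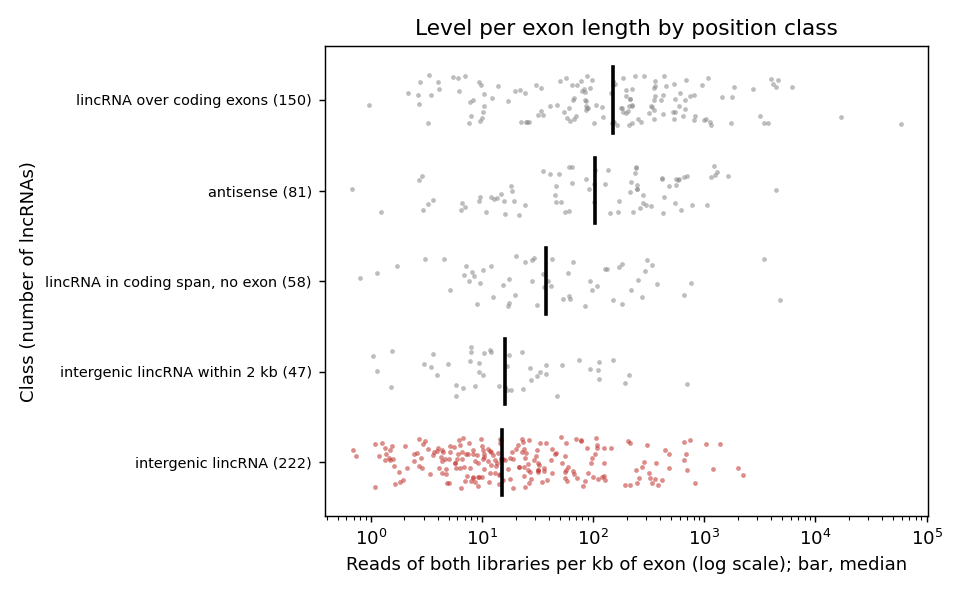
Reads of both libraries per kb of exon (log scale) for lncRNAs of 5 position classes, 1 point per lncRNA, with the class median as a bar. The 222 intergenic lincRNAs (median 15.1) and the 47 within 2 kb of a coding start (median 15.9) lie to the left of the 150 lincRNAs over coding exons (median 151). Reads of the latter may include reads of coding genes, since the use of strand is not stated.

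Members were next compared between the diets. CPM are reads scaled to a fixed total for this table. A call of higher or lower in the HFD library needed a CPM ratio of 2-fold or more and a minimum of 20 reads in whichever library had more. The minimum was set in reads, so it stood for 103 CPM in the HFD library and 82.6 CPM in the ND library. Members with more reads in the ND library could thus pass at a lower CPM than those with more in the HFD library. The part of this in the counts of higher and lower calls and in the median ratio was not tested. By the rule of 2-fold and 20 reads, 10 intergenic lincRNAs were higher and 13 lower of the 97 that reached the minimum. Over the whole known table, 7.69% of the 364 that reached it were higher and 8.24% lower, 15.9% in all, beside 10.3%, 13.4% and 23.7% for the members. The members had fewer reads, and the share called moved with reads in both sets. With 20 to 49 reads over both libraries 11 of 25 members (44%) and 10 of 27 other rows (37.0%) were called, 2 higher and 9 lower among members and 7 and 3 among the other rows. In the next bin, with 50 to under 200 reads, 10 of 45 (22.2%; 7 higher) and 10 of 70 (14.3%; 6 higher) were called, and with 200 or more 2 of 27 (7.41%; 1 higher) and 15 of 170 (8.82%; 5 higher). So 9 of the 13 lower members, and 2 of the 10 higher ones, had under 50 reads over both libraries. Whether the larger share among members comes from their lower depth was not tested.

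The interval excluded 0 for all 10 higher and for 10 of the 13 lower members. It lay wholly beyond 2-fold for 3 and 1 of them (Gm28182, Gm29483, 4933440J02Rik and 3930402G23Rik). The whole known table had 28 higher and 30 lower calls. Of these, 25 and 23 had intervals clear of 0, and 8 and 6 had intervals wholly beyond 2-fold. All calls had first been picked by a 2-fold ratio on the same reads, which made intervals clear of 0 likely in advance. With a further demand on an exact binomial test of pairs, with a Benjamini-Hochberg value under 0.05, 6 higher and 4 lower members were left, beside 4.67% and 4.4% of the 364. That test compares these libraries, not the diets. The median log2 ratio of the 97 was -0.10 (quartiles -0.65 and 0.39), beside -0.01 over the 364, with 42 above 0 and 55 below. A share of 51.5% of the 97 differed by less than 1.5-fold, against 65.9% of the 364.

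**Figure D2:**
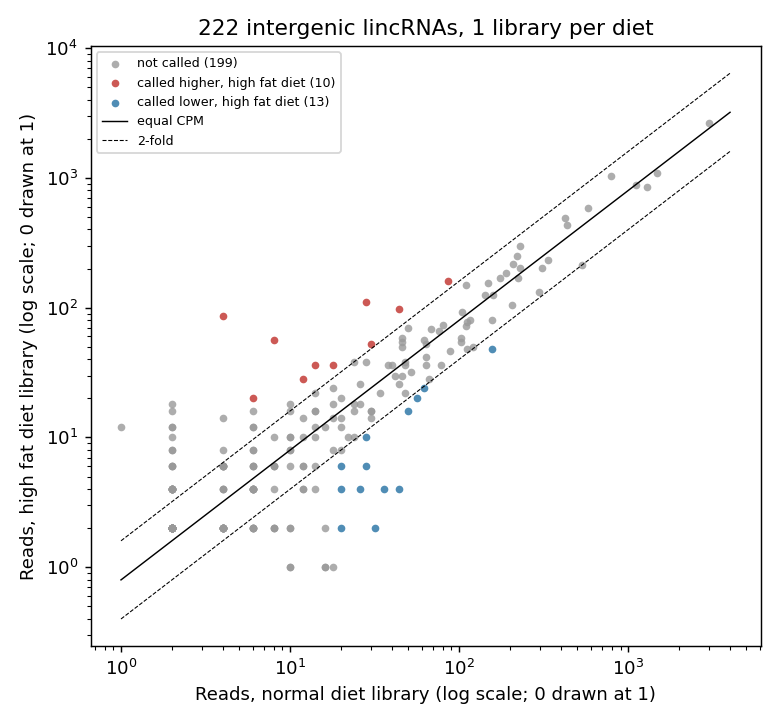
Reads of the 222 intergenic lincRNAs in the ND library (x axis) and the HFD library (y axis), both on log scales, with the 10 called higher in red, the 13 called lower in blue and a solid line at equal CPM. Members with many reads lie near the line, and most called ones have under 100 reads over both libraries (19 of 23).

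Among members higher in the HFD library, Gm28182 had the largest ratio. This single-exon lincRNA (ENSMUSG00000101596, GRCm38 chromosome 9, 74852909 to 74855385, minus strand) starts 6536 bases from the start of Onecut1, on the opposite strand. Onecut1 encodes HNF6, a transcription factor of liver and biliary development. Gm28182 had 86 reads (444 CPM) in the HFD library and 4 reads (16.5 CPM) in the ND library, a 26.9-fold higher level (interval 7.01 to 229). With 2 read pairs in the ND library the size of this fold is poorly bounded above.

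Gm29483 (chromosome 1) followed, with 56 reads against 8 and an 8.76-fold higher level (3.06 to 34.4). It lies 65393 bases from its nearest coding gene, Otos. 4933440J02Rik (chromosome 10), whose nearest coding gene is Phlda1, a gene induced by growth factors and stress, had 110 reads against 28 and was 4.92-fold higher (2.70 to 9.57). All 3 are without near-identical copies in other annotated transcripts, searched as shared stretches of 50 bases, and share no exon bases with another gene. The shares of stretches given below are taken over the stretches of both strands together. A stretch found elsewhere in a single orientation is thus not counted in full, so the shares can understate how much of a lincRNA is copied.

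Gm35665 (ENSMUSG00000108575, chromosome 7, 35135046 to 35141449, minus strand) lies 13118 bases from Cebpa and points the opposite way. Cebpa encodes C/EBPalpha, a transcription factor of hepatocytes and adipocytes that controls metabolic genes. Gm35665 had 98 reads against 44, which is 506 against 182 CPM and 2.79-fold higher (1.65 to 4.84). Gm11261 (chromosome 4) had the most reads of the 10, with 160 against 86, and was 2.33-fold higher (1.59 to 3.46). It is 449627 bases from the start of Ptprd, a receptor tyrosine phosphatase gene, and 30.3% of its 50-base stretches also occur in transcripts of 36 other genes, so some reads could be shared.

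The other 5 higher members had fewer reads. Of these, 1700083H02Rik, 63047 bases from the Wnt pathway gene Dact1, had 52 reads against 30 (log2 ratio 1.12, interval 0.15 to 2.14). 4632415L05Rik, whose nearest coding start is that of the ceruloplasmin gene Cp, had 36 against 18 (1.32, 0.09 to 2.66). RefSeq lists it as a transcribed pseudogene. Gm6410 had 28 against 12 (1.55, 0.08 to 3.21), and 30.4% of its stretches occur elsewhere. Lsmem2 had 20 reads against 6 (2.06, 0.10 to 4.56). GENCODE and RefSeq differ on whether it is coding.

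Gm28872, the shortest member, was also higher, with 36 reads against 14 (log2 ratio 1.69, interval 0.36 to 3.19). Its 158 bases are shown because they hold the whole reverse complement of Rnu11, the U11 small nuclear RNA that recognises 5' splice sites of minor introns. The transcript is read from GENCODE M21 (GRCm38, chr4:132270056-132270213, plus strand), with the 134 bases complementary to Rnu11 in capitals:
Gm28872: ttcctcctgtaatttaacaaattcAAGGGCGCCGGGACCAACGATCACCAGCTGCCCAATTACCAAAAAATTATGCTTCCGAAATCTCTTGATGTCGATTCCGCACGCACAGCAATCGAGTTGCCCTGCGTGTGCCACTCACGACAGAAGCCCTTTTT
The capitals run from position 25 to the last base and cover all 134 bases of Rnu11. No source used here says whether counting used strand, so reads of Gm28872 cannot be told apart from reads of U11.

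Among members lower in the HFD library, D5Ertd615e (chromosome 5) had the most reads, with 48 against 156, and was 2.60-fold lower (1.63 to 4.29). It spans 45009171 to 45424402 and its nearest coding gene is Qdpr, which encodes dihydropteridine reductase, an enzyme that regenerates tetrahydrobiopterin. 3.58% of its 50-base stretches occur in other genes' transcripts. 3930402G23Rik (ENSMUSG00000038917, chromosome 8) had 4 reads against 44 and was 8.79-fold lower (2.16 to 77.1). Its nearest coding gene, 55985 bases away, is Irs2, the insulin receptor substrate 2 gene, a main transmitter of insulin signals in liver.

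Gm28265 (chromosome 15) had 2 reads against 32, the smallest ratio of all called members (log2 ratio -3.68, interval -9.07 to -0.99). It shares 448 exon bases with the lincRNA Gm10830 on the opposite strand. Gm26906 had 4 reads against 36 (-2.85, -6.00 to -0.78). All 1228 of its exon bases lie opposite exons of Meg3, an imprinted lncRNA expressed from the maternal chromosome, so its reads cannot be told apart from those of Meg3. Gm31693 had 2 against 20 (7.99-fold lower, 1.14 to 347) and 4933413J09Rik, which runs toward Slmap, 4 against 26 (5.19-fold lower, 1.18 to 47.4).

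AI839979 and Gm43660 are neighbours on the minus strand of chromosome 5, and both run toward Slc4a1ap, their nearest coding gene, while the nearest coding start is that of the mitochondrial ribosomal protein gene Mrpl33. AI839979 had 16 reads against 50 and was 2.50-fold lower (1.09 to 6.41). Gm43660, which was not called, had 132 against 296 and a ratio of 1.79-fold lower (1.33 to 2.43). The other lower members with intervals below 0 were 4930403P22Rik (20 reads against 56), Gm38246 (24 against 62) and 1700001L05Rik (6 against 28), with log2 ratios of -1.16, -1.05 and -1.90. For Gm38246, 30.3% of the stretches occur elsewhere. Gm36972 (10 against 28), 4833412C05Rik (6 against 20) and Gm44427 (4 against 20) met the rule with intervals that included 0.

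**Figure D3:**
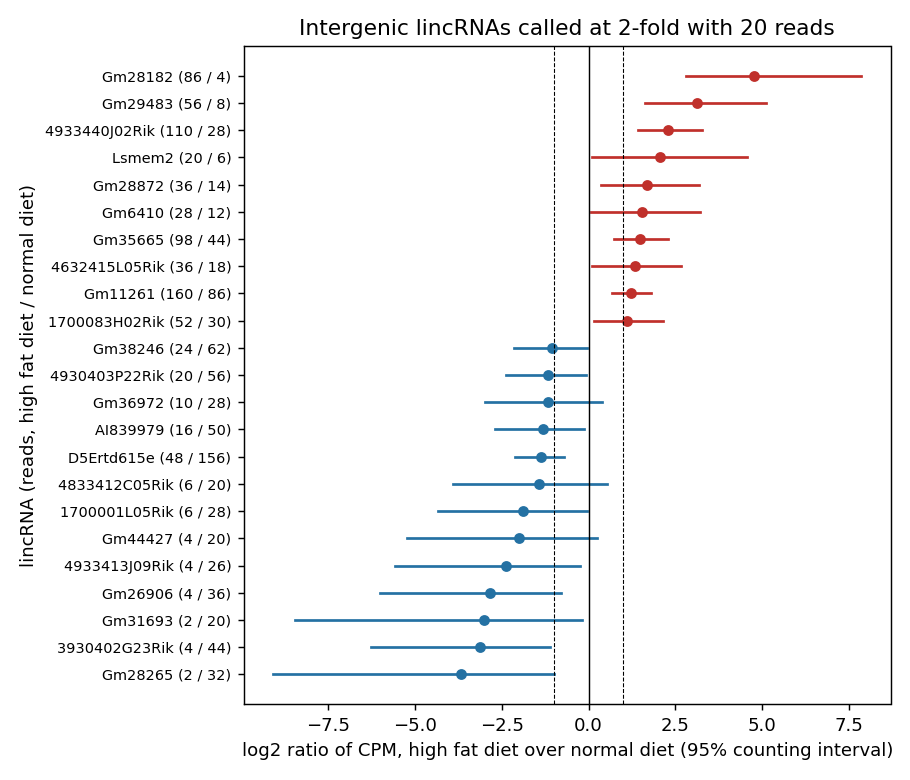
Log2 ratio of CPM, HFD over ND, for the 23 called intergenic lincRNAs, with the 95% counting interval as a bar and the reads of both libraries after each name. Dashed lines mark 2-fold, and Gm28182, Gm29483, 4933440J02Rik and 3930402G23Rik have intervals wholly beyond them.

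Promoters are shown for 4 called members, the 2 with the most reads in each direction among those whose RefSeq start lies within 50 bases of the GENCODE 5' end. Each runs from 250 bases before to 50 after the RefSeq start (GRCm38.p6, 5' to 3' on the gene's strand), and capitals mark any of these motifs on either strand: the promoter element TATAAA, the upstream element CCAAT, the Sp1-type element GGGCGG, the nuclear receptor half-site AGGTCA, the palindromic E-box CACGTG and the HNF4A-type element AAAGTCC. The first and second were higher in the HFD library and the others lower.
4933440J02Rik, chr10:111594224-111594523, minus strand: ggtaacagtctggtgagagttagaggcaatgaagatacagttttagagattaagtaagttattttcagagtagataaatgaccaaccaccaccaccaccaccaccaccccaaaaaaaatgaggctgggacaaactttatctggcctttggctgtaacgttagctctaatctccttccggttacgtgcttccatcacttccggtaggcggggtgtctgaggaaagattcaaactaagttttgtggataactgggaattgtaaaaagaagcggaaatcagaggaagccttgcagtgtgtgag
1700083H02Rik, chr12:71384159-71384458, minus strand: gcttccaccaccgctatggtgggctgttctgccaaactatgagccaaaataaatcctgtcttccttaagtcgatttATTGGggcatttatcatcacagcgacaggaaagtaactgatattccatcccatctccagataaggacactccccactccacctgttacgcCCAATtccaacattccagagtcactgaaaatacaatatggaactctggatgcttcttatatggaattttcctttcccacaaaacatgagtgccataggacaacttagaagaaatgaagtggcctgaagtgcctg
AI839979, chr5:31571348-31571647, minus strand: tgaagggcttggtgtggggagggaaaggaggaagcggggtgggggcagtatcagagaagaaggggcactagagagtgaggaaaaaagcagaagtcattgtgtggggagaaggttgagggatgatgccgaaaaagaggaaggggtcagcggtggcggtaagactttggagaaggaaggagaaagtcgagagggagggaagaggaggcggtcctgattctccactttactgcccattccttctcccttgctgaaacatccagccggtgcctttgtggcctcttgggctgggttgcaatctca
1700001L05Rik, chr15:83367248-83367547, minus strand: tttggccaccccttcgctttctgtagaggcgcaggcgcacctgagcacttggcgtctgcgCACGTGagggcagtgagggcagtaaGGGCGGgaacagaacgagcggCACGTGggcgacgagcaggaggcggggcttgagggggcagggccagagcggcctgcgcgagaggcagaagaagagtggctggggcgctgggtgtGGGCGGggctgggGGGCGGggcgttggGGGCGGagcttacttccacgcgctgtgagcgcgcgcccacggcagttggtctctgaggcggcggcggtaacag
The promoter of 1700001L05Rik stood apart in composition, with a GC content of 70.3%, 30 CpG dinucleotides, 4 matches to GGGCGG and 2 to the E-box. That of 1700083H02Rik held CCAAT on each strand. The promoters of 4933440J02Rik and AI839979 held none of these letters in this window, with 6 and 7 CpG dinucleotides.

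RefSeq promoters were matched by symbol for 78 of the 222 members, and for 42 of these the RefSeq start lay within 50 bases of the GENCODE 5' end. The 42 had a median GC content of 50.7% with 4 CpG dinucleotides, beside 52.7% and 7 over all 32851 promoters of the table, which include those of coding genes. GGGCGG was in 26.2% of the 42 (19.2% of the 78) and in 35.7% of all promoters. CCAAT was in 42.9% (43.6%) against 37.4%, AGGTCA in 23.8% (17.9%) against 16.3%, and TATAAA in 7.14% (12.8%) against 13.6%. CACGTG was in 9.52% (8.97%) against 7.15% and AAAGTCC in 2.38% (2.56%) against 4.21%. With 42 promoters these shares rest on 1 to 18 matches. A match is a run of letters, not a binding site.

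Of the 10 members with the most reads, 8 had HFD and ND levels within 1.5-fold of each other. Gm28268 (chromosome X, 5 exons), the most abundant both in reads and per kb, had 2646 reads against 2988 (13672 against 12337 CPM), a log2 ratio of 0.15 (0.04 to 0.26). Of its 50-base stretches, 22.4% also occur in transcripts of other genes, 106 in all. 4930533N22Rik, with 19.5% of its stretches elsewhere, had 1096 against 1472 (-0.10, -0.26 to 0.06) and Gm44739 878 against 1110 (-0.01, -0.20 to 0.17). For Gm44739, 69.1% of the 50-base stretches occur in other genes' transcripts, the highest share of any member by this measure over both strands.

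The largest difference toward the HFD library among the 10 members with the most reads was that of Gm43549 (chromosome 3), with 1038 reads against 790 and a 1.64-fold higher level (1.44 to 1.88). Other genes' transcripts hold 44.3% of its stretches. Gm26981, whose nearest coding gene is the Rab GTPase gene Rab30, had 490 against 424 (1.45-fold, 1.20 to 1.75). In the other direction Gm13833 (chromosome 6) had 212 against 530, which is 1095 against 2188 CPM. This is just short of 2-fold lower (1.59 to 2.53). It lies inside the span of Lncpint on the opposite strand and shares no exon bases with it. The nearest coding gene, 143768 bases away, is Klf14, a zinc finger transcription factor gene linked to lipid traits.

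Of the remaining abundant members, 4932422M17Rik had 856 reads against 1296 (log2 ratio -0.27), sharing 1622 exon bases with the lincRNA AI480526 on the opposite strand, and Gm14149 234 against 334 (-0.19). 1810012K08Rik had 584 against 580 (0.33) and Gm7976 436 against 432 (0.34). 1810012K08Rik, second per kb of exon, shares 368 of its 574 exon bases with Tmem250-ps, another member on the opposite strand, listed by RefSeq as protein-coding, with 18 reads against 26, so reads of this overlap could belong to either. Gm37027, a lincRNA with 2 exons, was also among the 5 members with the most reads per kb, with 104 reads against 204 (-0.65, -1.16 to -0.15).

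None of the members on the lists of better-known lncRNAs was called, and the rule had left out several well-studied lncRNAs by name. Pvt1, which lies beside Myc and is often amplified with it in tumours, had 18 reads against 2 (log2 ratio 3.49, 0.64 to 8.95), under the read minimum. Lncpint, a p53-induced lincRNA, had 2 against 6, and with Pvt1 was 1 of 2 listed of the 8 growth and p53 response genes. Ftx, an activator of Xist, had 4 against 12. Of the pluripotency-associated transcripts, Platr15 had 4 against 14, Platr19 6 against 4 and Platr1 4 against 2. Outside the lists, and chosen after their values were seen, Dubr had 74 reads against 80 (log2 ratio 0.21, -0.47 to 0.89), Bvht (Braveheart, known from heart development) 30 against 46 (-0.29, -1.34 to 0.71) and Lockd, which lies beside Cdkn1b, 14 against 30 (-0.78, -2.31 to 0.61). None of the 14 snoRNA hosts and 7 imprinted lncRNAs looked for was listed. Of the members named here, the interval excluded 0 for Pvt1 alone, without adjustment for the number of lncRNAs.

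Members can also carry microRNAs in their exons. Mir155hg, the precursor of miR-155 in activated macrophages and lymphocytes, had 8 reads against 2 (log2 ratio 2.32, -1.01 to 7.95). It was the 1 listed of 15 microRNA hosts besides Pvt1, and the 1 listed of the 5 Kupffer cell and macrophage markers. None of the 4 lymphocyte, 3 sinusoidal endothelial, 4 stellate cell and 3 cholangiocyte markers is listed. Most of the markers are coding genes, which a table of lncRNAs does not list, so the part of other cell types in these values was not tested. E130102H24Rik, the host of miR-101a on chromosome 4, had 38 reads against 24 (0.99, -0.13 to 2.16), just short of 2-fold. The mature microRNAs are shown from RefSeq (GRCm38.p6) with the seed, bases 2 to 8, in capitals, since the host reads do not measure them:
mmu-miR-101a-3p: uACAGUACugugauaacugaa
mmu-miR-155-5p: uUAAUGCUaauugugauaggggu
The seeds differ, so the 2 hosts do not give microRNAs of 1 seed family.

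Distance from coding genes varied widely among members, from 2199 to 1856275 bases to the nearest coding 5' end with a median of 42234. All 13 lower members lay over 10 kb away, with 7 of the 10 higher ones. So did 85 of the 97 members that reached the read minimum. Of the 12 members at 2 to 10 kb that reached the read minimum, 3 were higher (Gm28182, Gm28872 and Lsmem2) and 0 lower. Of the 62 at 10 to 100 kb, 6 were higher and 11 lower, and of the 23 beyond 100 kb, 1 and 2. These counts are small and were not tested. Members just past the 2 kb limit were Gm17216, at 2199 bases from Ergic2 (124 reads against 142), Gm26664, at 2276 bases from Ier2 (6 against 4), and Gm15611, at 2345 bases from Crot (2 against 4). Just inside it, and so not members, were 4930528D03Rik at 1878 bases (6 against 10), 4930509G22Rik at 1783 (96 against 134) and 2700033N17Rik at 1605 (14 against 20). None of these 6 was called.

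**Figure D4:**
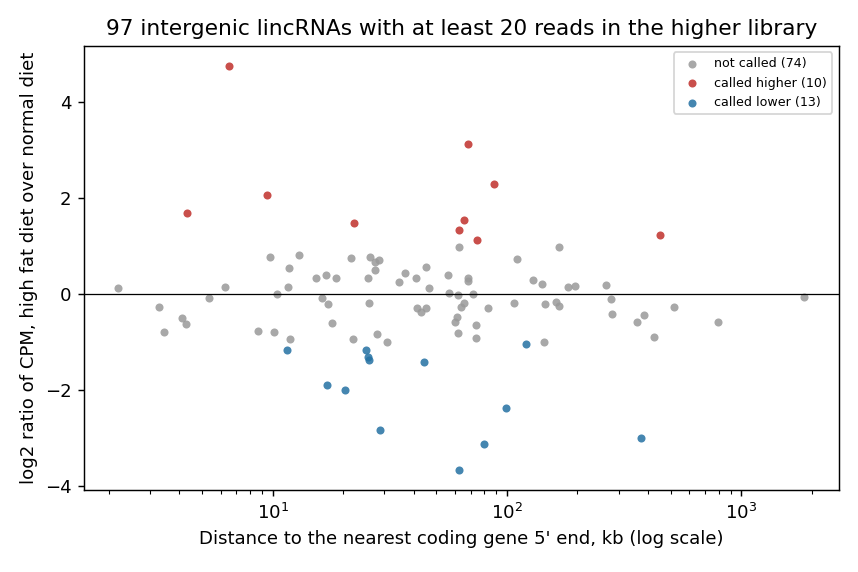
Log2 ratio of CPM, HFD over ND, against the distance to the nearest coding gene 5' end in kb (log scale), for the 97 intergenic lincRNAs that reached 20 reads in either library. The 13 lower members (blue) all lie beyond 10 kb, as do 85 of the 97 shown, and 3 of the 10 higher ones (red) lie nearer.

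In structure, 21 members had 1 exon, 94 had at most 2 exons per transcript and 107 had more. Of the 15 single-exon members that reached the read minimum 6 were called (40%), and of the 82 others 17 (20.7%), beside the same 15.9%. Exons of 67 members overlapped an exon of another, non-coding gene, in 59 cases on the opposite strand alone. Near-identical stretches elsewhere were found for 105 members. Of the members that reached the minimum, 7 of 52 with such stretches (13.5%) and 16 of 45 without (35.6%) were called, beside 15.9% over the whole table. Those with them had more reads, a median of 126 over both libraries against 76, and the share called was lower at higher reads, and the part of depth in this gap was not tested. Members with them held 5.29% and 4.91% of the table's reads in the HFD and ND libraries, and those without 2.17% in each.

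Members that lie close together did not always have like ratios. At the miR-101a locus near Ak4, 0610043K17Rik had 78 reads against 112 and Gm12798 36 against 48, with log2 ratios of -0.20 and -0.09, beside 0.99 for E130102H24Rik on the other strand. The intervals of all 3 included 0. Gm26964 and A530017D24Rik, which share 751 exon bases on opposite strands near Ulk2, had ratios of -0.00 (-0.50 to 0.49) and 0.81 (0.03 to 1.61). On chromosome 14, Gm26916, whose 352 exon bases all lie opposite Dleu2, had 50 against 120 (-0.94, -1.67 to -0.24), and Gm27017 had 72 against 110 (-0.29, -0.94 to 0.34). These groups were chosen after their values were seen, and the differences within them were not tested.

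The authors' deposited table marks 8 intergenic lincRNAs as higher and 9 as lower, beside 3.26% and 3.58% of all 614 rows. The calls above include 12 of the 17. The remaining ones, Pvt1, Gm16025, 5330411O13Rik, Gm12088 and Gm26634, had under 20 reads in both libraries. Gm16025 had 16 reads against 2. The last 3 had 0 read pairs in the HFD library and 18, 16 and 16 reads in the ND library, which is 2.40, 2.13 and 2.13-fold lower against a floor of 6 reads, and at least 1.58, 1.36 and 1.36-fold lower by the limit of their intervals.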

How the data were processed

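Total RNA of 1 liver library per diet was measured by RNA sequencing. The submitters' processing notes name the tools HISAT2, HTSeq and DESeq and the build mm8, with no roles or versions. Neither the annotation nor the use of strand is given in the sources used here. CPM are the deposited values, normalized per the file headers. The deposited fold change is their ratio, and the deposited log2 column its log2. The authors' p-values and adjusted p-values were used only as theirs. Dividing by the smallest value of a column, taken as 1 read, gave whole reads for 100% of values within 1e-06. All were even apart from values of 1, taken as 0, so intervals use pairs of 2 reads. The totals to which CPM were scaled are 193538 (high fat diet) and 242194 reads (normal diet). The depth of the whole libraries is unknown. A fold against 0 pairs uses a floor of 3 pairs per library.

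Genes were matched by Ensembl identifier to GENCODE M21 on GRCm38, where 8 of the 614 rows were not found. Positions and distances are those of that annotation, and no coordinate was converted from mm8. Members and lists were chosen with earlier results of these data known. Named were all called members, the 10 with the most reads, the 5 with the most reads per kb, the 3 nearest the distance limit on each side and listed members of the gene lists. Other members named were chosen after their values were seen. Python 3.11.15, scipy 1.17.1 and pandas 2.3.3 were used. The calling was run on simulated data with counting error alone, which cannot show how it behaves when animals differ. The table of numbered lncRNAs, which have no positions, was not used. Alternatives varied the read minimum, fold, scaling, pseudocount, distance, overlaps and copies.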

Additional observations from a re-analysis of the deposited data

How the results depend on the processing

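Calls moved with both the read minimum and the fold. Beside 10 higher and 13 lower, no read minimum gave 38 and 32 (17.1% and 14.4% of members, 12.7% and 11.1% of the whole table), and a minimum of 100 reads 2 and 1 (5.56% and 2.78%, against 3.77% and 5.19%). A 1.5-fold threshold gave 19 and 28 (19.6% and 28.9%, against 15.9% and 18.1%) and 4-fold 4 and 5 (4.12% and 5.15%, against 1.65% and 2.47%). Adding the authors' adjusted p of 0.05 or less left 6 and 6 (6.19% each, against 4.95% and 5.22%). Adding the exact binomial test, with a Benjamini-Hochberg value under 0.05 over the 364 tested, left 6 and 4 (6.19% and 4.12%, against 4.67% and 4.4%). Counts stayed within 1.5 times under the other settings run. Median-ratio scaling gave 10 and 15 (10.3% and 15.5%, against 7.42% and 9.34%). Totals without the 10 lncRNAs with the most reads gave 10 and 17 (10.3% and 17.5%, against 7.42% and 10.7%). A pseudocount of 5 reads gave 10 and 9 (10.3% and 9.28%, against 7.42% and 6.04%). Filters took members out: 7 and 13 of 85 were left over 10 kb, 9 and 10 of 70 without exon overlaps, and 7 and 9 of 45 without near-identical stretches. In all, 23.5%, 27.1% and 35.6% of these were called, against 23.7% of the 97. The pseudocount takes Gm38246, 4930403P22Rik, Gm36972 and 4833412C05Rik under 2-fold. The median log2 ratio, -0.10, lay between -0.19 and -0.01 under these scalings, filters and the 100-read minimum, but at 0.14 over all 222 members without a minimum. The share of reads, 7.46% and 7.08%, was 6.09% and 5.85% without Gm28268, and 5.36% and 5.05% for members over 10 kb away. The median per kb of 15.1 was 16.4 by the longest transcript and 15.5 over 10 kb. For 44 named members, all 176 alternatives of scaling and pseudocount stayed within the counting interval and 0 calls reversed. That outcome was nearly fixed in advance. The scalings moved every log2 ratio by only -0.01 and -0.08, and a pseudocount mainly shrinks large ratios. It therefore says little about how firm the calls are. No paired analysis was possible because only 1 liver library stands on each side, and so none could be left out.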
